A study of Mus musculus with 40 samples.

Results

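The larynx of FVB/N mouse embryos at E18.5, shortly before birth, was set against the larynx at E13.5, when the vocal folds, the laryngeal muscles and the cartilages are only beginning to form. Members were chosen by label: the 2 libraries of larynx at E18.5 and the 2 libraries of larynx at E13.5 whose names end in a short code, 4 of the 40 libraries of the series. The embryos were of the inbred FVB/N strain, with no altered allele and no treatment named in the labels, and the methods give 10 animals pooled at each of these ages. RNA of the whole dissected organ was sequenced in bulk, so a value is the sum over muscle, cartilage, epithelium, glands, nerve, vessels and any neighbouring tissue taken along, and fewer cells of a type and less RNA per cell cannot be told apart. The other libraries of the same kind, from the trachea and esophagus, from the larynx at E11.5 and E15.5 and from what the labels call the primitive laryngopharynx at E10.5, served to estimate the spread between replicates and, for E18.5 and E13.5 of the trachea and esophagus, to test where the change in the larynx differed.

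The larynx joins the pharynx to the trachea, closes the airway during swallowing and makes voice. Its skeleton is of hyaline cartilage, its intrinsic muscles are skeletal muscles that arise from pharyngeal arch mesoderm, and its lining passes between stratified squamous epithelium, which covers the vocal folds, and airway epithelium with ciliated and secretory cells and submucosal glands. Muscle fibers form as myoblasts that express Myf5 and Myod1 turn on Myog, fuse, and build sarcomeres and motor endplates, and cartilage matures as chondrocytes lay down type II collagen and aggrecan and, where bone will follow, enlarge and make type X collagen.

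The E18.5 libraries held 23403437 and 25568770 expected counts, against 24163158 and 21393700 in the E13.5 libraries. Mitochondrial ribosomal RNA took 22.8 to 28.4% of these counts. Replicates correlated across genes with Pearson r of 0.964 at E18.5 and 0.973 at E13.5, a description over 17795 genes that are not independent. Values are given as normalized counts, which are expected counts divided by a factor for each library; they are not corrected for gene length, so only values of the same gene are compared. Among all short-code libraries 3 stood apart by counts in many olfactory receptor genes, from 682 to 1107 of 1193, namely replicate 2 of larynx E11.5, larynx E15.5 and trachea E15.5, and none of these is among the 4 compared. Defining markers of the organ were present: Krt5 of basal epithelium stood at 1995 and 4422 normalized counts at E18.5, against 251 and 178 at E13.5, Myog of muscle at 1891 and 1342 at E18.5, against 138 and 207 at E13.5, and Col2a1 of cartilage at 54508 and 25422 at E18.5, against 677 and 659 at E13.5. Nkx2-1, a transcription factor of respiratory and thyroid epithelium, stood at 0 and 2.12 normalized counts at E18.5, against 27.9 and 17.4 at E13.5.

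The 2 libraries at E18.5 were unlike in their epithelial content, and the 2 groups were unlike in neighbouring tissue. Of 39 genes of squamous epithelium, 38 were higher in replicate 2 than in replicate 1 at E18.5, and of 50 genes of multiciliated cells 47 were, whereas 33 of 40 muscle genes were higher in replicate 1. Heart genes took 0.0393 and 0.0307% of counts at E18.5, against 0.764 and 1.21% at E13.5, with Nppa at 0 and 0 at E18.5, against 5157 and 13319 at E13.5. Liver genes took 0.00243 and 0.00344% at E18.5, against 0.109 and 0.0166% at E13.5. Genes of the thyroid follicle took 0.00276 and 0.0576% at E18.5, against 0.00501 and 0.00194% at E13.5, so that replicate 2 at E18.5 stood above the other 3 libraries. These values are repeated where a result moves with them, and their part in those results was not tested.

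Of 35512 genes tested with edgeR's quasi-likelihood test, 2846 were higher at E18.5 (8.01%) and 1773 were lower (4.99%) at a Benjamini-Hochberg adjusted p under 0.05. A gene is called here when it passes this threshold. The SE beside a log2 fold change is the size of that change divided by the square root of the test's F value. It is an approximation, least reliable where a group was at 0. Leaving out a library lowered both counts, to 2109 higher and 952 lower without E18.5 replicate 1, 1945 and 785 without E18.5 replicate 2, 1760 and 1077 without E13.5 replicate 1, and 1643 and 1045 without E13.5 replicate 2. The labels number the replicates but do not say that they were separate litters, so p-values measure the spread between these pooled libraries. The called genes included 2291 that rose and 1144 that fell by more than 1 log2 unit, and 507 that rose and 130 that fell by more than 5. Of 20210 protein-coding genes tested, 2716 were higher and 1698 were lower, larger shares than over all genes tested. The gene lists below hold mostly protein-coding genes. At E13.5 both libraries were at 0 counts for 194 of the higher genes, and at E18.5 both were at 0 for 68 of the lower genes. For such a gene no fold change is given, only a lower bound taken against 3 counts in each library at 0. The balance of rises and falls depended on how libraries were scaled. With the median-ratio factors used throughout, 61.6% of called genes were higher, with TMM factors 50.3% (2370 higher, 2339 lower), and with library totals without mitochondrial genes 22.7% (1561 higher, 5311 lower). The TMM factors shifted the log2 fold change of all genes by -0.15 in the median and the library totals by -0.60, so a change within about this size of 0 has a direction that depends on the scaling. By median-ratio factors and library totals alike, 1552 genes were called higher, 1773 were called lower and 0 were called in opposite directions.

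**Figure D1:**
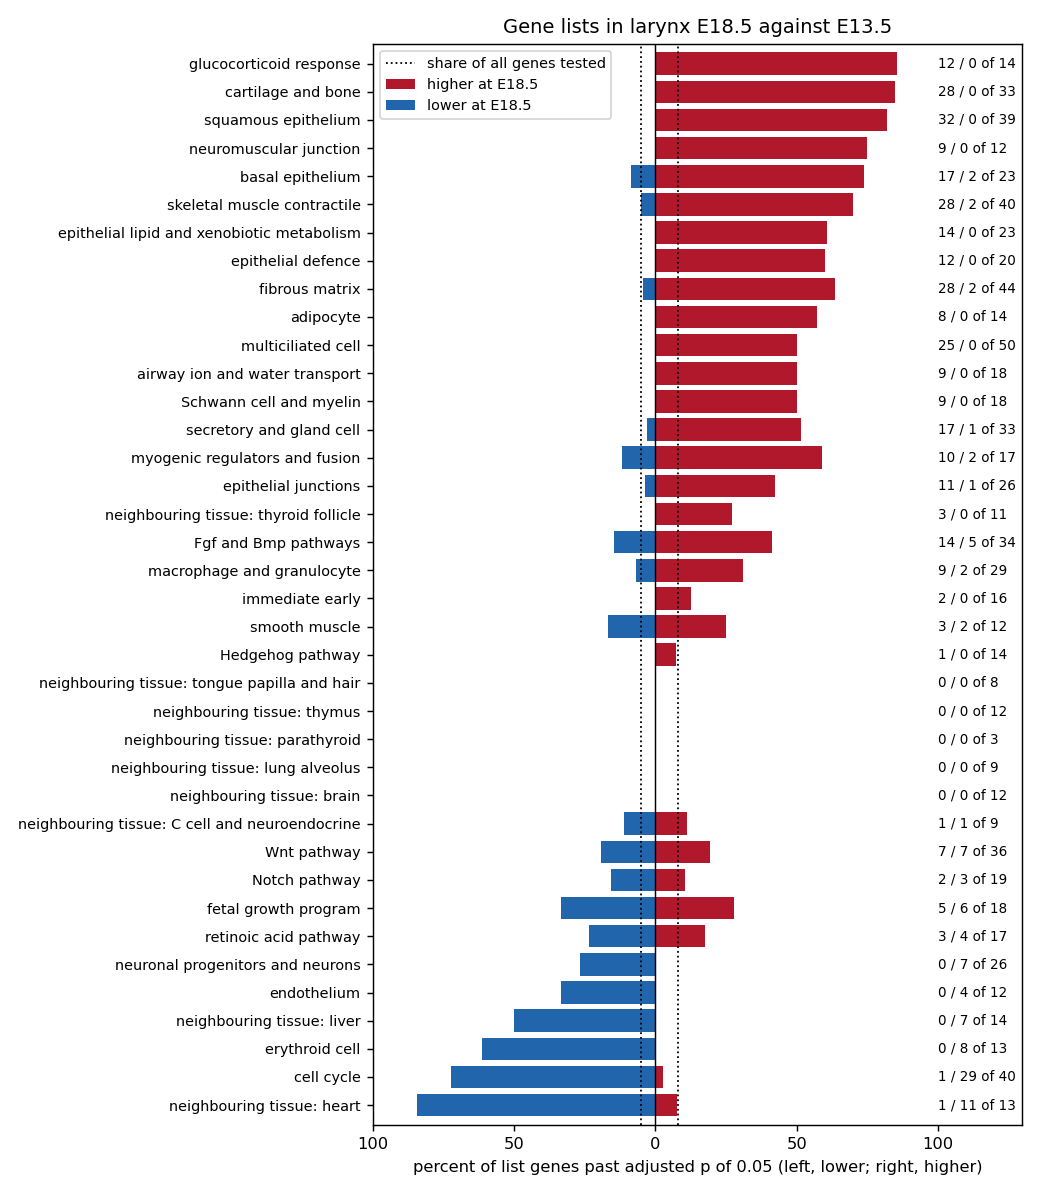
Share of genes in each list that were higher (right) or lower (left) at E18.5 than at E13.5 in the larynx, as percent of the list genes tested, with the counts of higher and lower genes of those tested beside each bar. Dotted lines mark the share of all genes tested, 8.01% higher and 4.99% lower. The bars of muscle, cartilage and squamous epithelium run far to the right of the line, with 28 of 40, 28 of 33 and 32 of 39 genes higher, and those of the cell cycle and heart run to the left, with 29 of 40 and 11 of 13 genes lower.

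The largest rises were in products of glands and of stratified squamous epithelium. Dcpp2, a secreted protein of salivary-type glands, stood at 2322 and 7175 normalized counts at E18.5, against 0 and 0 at E13.5, at least 2000.4-fold higher, and Dmbt1, a scavenger receptor protein of mucosal surfaces, at 2249 and 7003 at E18.5, against 0 and 0 at E13.5, at least 1949-fold higher. Lipf, a lipase first known from gastric glands, stood at 7465 and 19234 at E18.5, against 0 and 0.918 at E13.5. These gene products shared a pattern within E18.5, with replicate 2 above replicate 1. Rptn, a protein of the cornified envelope, differed most of the 12 between the replicates, at 149.5 and 5363 at E18.5, against 0 and 0 at E13.5. Tmprss11a, a membrane serine protease of squamous epithelium, stood at 662 and 1598 at E18.5, against 0 and 0 at E13.5, at least 476-fold higher. Smgc, a mucin-like protein of glands, was the gland gene here whose E18.5 replicates were close, at 639 and 655 at E18.5, against 0 and 0 at E13.5, at least 273-fold higher. Sprr3, Krt13, Krt78, Spink5, Bpifb2 and the cartilage gene Ucma complete the 12 largest rises among protein-coding genes whose higher group averaged 50 or more, and are described with their groups. Each of the 12 kept its call when any 1 of the 4 libraries was left out.

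Skeletal muscle genes rose together, from transcription factors of the myoblast to proteins of the contracting fiber. Of 40 sarcomere, calcium handling and muscle energy genes, 28 rose and 2 fell, with a median log2 fold change of 4.98 against 0 over all genes tested. In the trachea 30 of the 40 rose and 1 fell (median 5.23), and in the esophagus 31 rose and 0 fell (median 4.30). In the larynx these genes took 12.3 and 10.48% of all counts at E18.5, against 0.893 and 1.17% at E13.5. Acta1, the actin of adult skeletal muscle, stood at 571622 and 424755 normalized counts at E18.5, against 935 and 1638 at E13.5 (log2 fold change 8.60 ± 1.20 SE, adjusted p = 2.09e-05), and Ckm, muscle creatine kinase, at 146756 and 103010.0 at E18.5, against 324 and 784 at E13.5. Mybpc1, myosin binding protein C of slow fibers, stood at 76048 and 65264 at E18.5, against 110.3 and 140.4 at E13.5 (9.14 ± 0.87, adjusted p = 1.99e-07). Calcium handling genes were called in 5 of 5 cases, among them Ryr1, the calcium release channel, at 20925 and 14632 at E18.5, against 148 and 148 at E13.5, Atp2a1, the pump that returns calcium to its store, at 87939 and 67485 at E18.5, against 142 and 223 at E13.5, and Casq1, whose call was lost when any 1 of the 4 libraries was left out.

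The myosin heavy chains, each encoded by its own gene and used at its own stage or in its own fiber type, rose in 5 of 7 cases. Reads that match more than 1 of these close relatives were divided between them by the authors' counting, so the values of single members are uncertain. The embryonic chain Myh3 stood at 61029 and 48980.2 normalized counts at E18.5, against 2057 and 2427 at E13.5 (log2 fold change 4.62 ± 0.89 SE, adjusted p = 0.000756), and the perinatal chain Myh8 at 604264 and 556656 at E18.5, against 568 and 744 at E13.5 (9.79 ± 1.19, adjusted p = 3.76e-06). The chains of adult fast fibers were already measured before birth. Myh1, the type IIX chain, stood at 28784 and 42495 at E18.5, against 27.9 and 56.9 at E13.5, Myh2, the type IIA chain, at 14291 and 13873 at E18.5, against 23.9 and 21.1 at E13.5, and Myh4, the type IIB chain, at 17404 and 14925 at E18.5, against 3.32 and 8.26 at E13.5 (11.46 ± 1.15, adjusted p = 3.34e-07). Myh13, the chain of extraocular and some laryngeal fibers, was not called, with 2.49 and 3.18 at E18.5 and 0 and 0 at E13.5 (adjusted p = 0.266).

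Of the 40 genes, 10 were not called and 2 fell. Myh7, the slow and cardiac chain, stood at 6219 and 9046 normalized counts at E18.5 and 4480.1 and 7906 at E13.5, with ranges that overlapped (adjusted p = 1), and Actc1, cardiac actin, at 75994 and 44587 at E18.5 and 43099.5 and 73398 at E13.5, also with overlap (adjusted p = 1). Of 6 troponin genes 4 rose, and the 2 that fell were the slow genes Tnni1 and Tnnc1. Tnni1 stood at 4546 and 3578 at E18.5, against 8958 and 20216 at E13.5 (adjusted p = 0.0436, lost without either E18.5 library or without E13.5 replicate 2). Tnnc1 stood at 1347 and 1335 at E18.5, against 5893 and 13755 at E13.5 (adjusted p = 0.00421, lost without E18.5 replicate 2 or E13.5 replicate 2). Their fast partner Tnni2 stood at 59616 and 43574 at E18.5, against 56.5 and 118 at E13.5. Besides Myh7, Myh13 and Actc1, the genes not called were the light chains Myl2 and Myl3, the scaffold genes Smpx, Csrp3 and Tcap and the energy genes Pgam2 and Cox6a2, with log2 fold changes between -0.45 in Myl3 and 2.15 in Pgam2 (adjusted p = 0.993 and 0.0526). The heart list stood at 0.0393 and 0.0307% of counts at E18.5, against 0.764 and 1.21% at E13.5, and its part in the values of Myh7, Actc1, Tnni1 and Tnnc1 was not tested.

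**Figure D2:**
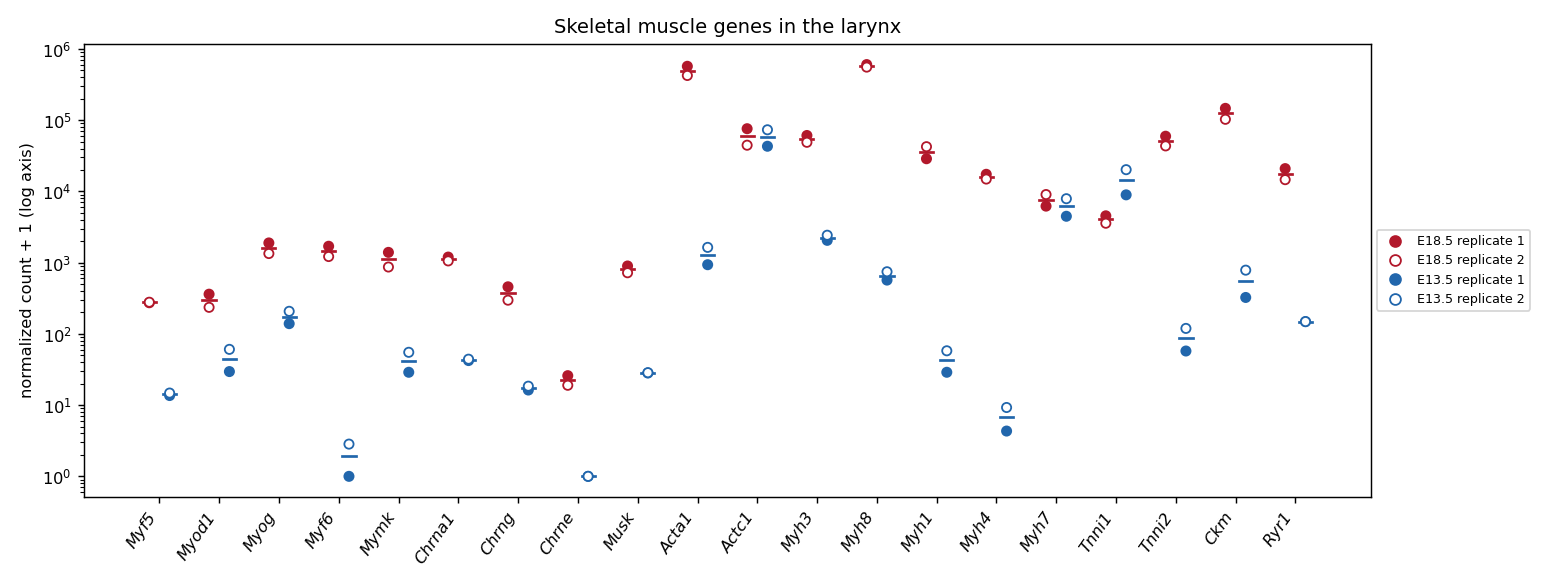
Normalized count plus 1 on a log axis for 20 skeletal muscle genes in the larynx, with E18.5 in red and E13.5 in blue, replicate 1 filled, replicate 2 open, and a bar at the mean of the 2 libraries. Regulators, acetylcholine receptor subunits and fast-fiber genes lie higher at E18.5 with no overlap, whereas Actc1 and Myh7 overlap and Tnni1 lies lower at E18.5.

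Promoters of these muscle genes are shown because the genes moved together. Sequences of 250 bases before the start of each gene were taken from RefSeq (GRCm38.p6), for 33 of the 40 muscle genes, and searched on both strands. The E-box CAGCTG, the site to which proteins of the Myod family are known to bind, was present in 15 of the 33, and in 13 of the 25 called genes with a sequence (52%), against 14.7% of 27025 genes. Among the called genes of other lists with a sequence it was present in 6 of 19 squamous genes (31.6%), 6 of 22 cartilage genes (27.3%), 2 of 27 cell cycle genes (7.41%) and 1 of 17 cilia genes (5.88%). A match is a description of letters and not a bound site. The matched genes with the largest changes were Myh4, shown on the plus strand of chr11:67237562-67237811, and Mybpc1, on the minus strand of chr10:88605153-88605402, each 5′ to 3′ with the E-box in capitals, its first base 67 bases before the start in Myh4 and 87 in Mybpc1.
Myh4: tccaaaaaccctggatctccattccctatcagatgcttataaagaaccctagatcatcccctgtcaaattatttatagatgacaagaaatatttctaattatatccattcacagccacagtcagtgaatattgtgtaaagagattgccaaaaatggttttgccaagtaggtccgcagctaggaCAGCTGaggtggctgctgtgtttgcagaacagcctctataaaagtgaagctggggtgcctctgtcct
Mybpc1: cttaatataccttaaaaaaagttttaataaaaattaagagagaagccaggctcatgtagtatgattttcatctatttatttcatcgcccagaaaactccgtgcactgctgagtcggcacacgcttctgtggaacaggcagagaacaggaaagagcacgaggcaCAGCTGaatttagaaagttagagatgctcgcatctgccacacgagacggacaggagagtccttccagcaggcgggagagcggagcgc
The related E-box CAGGTG was present in 6 of the 25 called genes (24%, against 19.4% of all genes), the Mef2 core, CTA and TAG with 4 bases between them, in 1 (4.0%, against 3.7%), and TATAAA in 7 (28.0%, against 14.3%). A strict Mef2 spelling that is a case of this core, another strict Mef2 spelling, the serum response element and the Tead motif ACATTCCA were in 0 of the 25, and are rare in all genes, from 0.074 to 1.36%.

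Among 17 regulators of the muscle lineage 10 rose and 2 fell. Myf5, which commits cells to the lineage, stood at 273 and 277 normalized counts at E18.5, against 12.6 and 13.8 at E13.5 (log2 fold change 4.37 ± 0.61 SE, adjusted p = 1.94e-05). Myog, which starts differentiation, was 3.23 ± 0.64 log2 units higher (adjusted p = 0.00098), and Myf6, the factor of late fibers, stood at 1699 and 1218 at E18.5, against 0 and 1.84 at E13.5. Myod1 stood at 360.1 and 235 at E18.5, against 28.6 and 59.7 at E13.5 (adjusted p = 0.00883, lost without E18.5 replicate 1 or E13.5 replicate 1). Pax7, the marker of the stem cells of muscle, was also higher, with 239 and 185 at E18.5, against 20.6 and 22.9 at E13.5. Mymk, the protein that lets myoblasts fuse, stood at 1394 and 868 at E18.5, against 27.9 and 54.2 at E13.5 (4.80 ± 0.63, adjusted p = 1.59e-05). Factors of pharyngeal arch muscle went apart. The heart list took 0.764 and 1.21% of counts at E13.5, against 0.0393 and 0.0307% at E18.5. Its part in the falls among these factors was not tested. Tbx1 stood at 401 and 343 at E18.5, against 52.5 and 27.5 at E13.5, whereas Tcf21 stood at 7.48 and 5.29 at E18.5, against 273 and 369.9 at E13.5 (-5.64 ± 1.03, adjusted p = 0.00043), and Isl1, which neurons also express, at 46.1 and 48.7 at E18.5, against 273 and 259 at E13.5 (call lost without either E18.5 library).

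The neuromuscular junction, the synapse of motor nerve on muscle, showed 9 of 12 genes higher and 0 lower, and each of the 9 kept its call when any 1 of the 4 libraries was left out. All 5 receptor subunits rose. The alpha subunit Chrna1 stood at 1197 and 1057 normalized counts at E18.5, against 41.2 and 43.1 at E13.5 (log2 fold change 4.74 ± 0.66 SE, adjusted p = 1.94e-05). The gamma subunit Chrng, which belongs to the fetal receptor, stood at 457 and 296 at E18.5, against 15.3 and 17.4 at E13.5, and the epsilon subunit Chrne, which replaces it in the adult receptor, at 24.9 and 18 at E18.5, against 0 and 0 at E13.5, at least 9.04-fold higher. Musk, the kinase that gathers receptors under the nerve, stood at 897 and 721 at E18.5, against 27.3 and 27.5 at E13.5 (4.88 ± 0.49, adjusted p = 3.43e-07). Agrn, the nerve-derived signal for Musk, was not called, with 2193 and 2457 at E18.5 and 2673 and 2739.9 at E13.5 (adjusted p = 0.727).

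Cartilage and bone genes rose in 28 of 33 cases, and 0 fell, with a median log2 fold change of 4.99. They took 0.483 and 0.293% of counts at E18.5, against 0.0323 and 0.0212% at E13.5, and 26 of the 33 were higher in replicate 1 than in replicate 2 at E18.5. Of 19 matrix genes of cartilage 18 rose. Col2a1, type II collagen, was 5.90 ± 0.92 log2 units higher at E18.5 (adjusted p = 7.50e-05), and Acan, the core protein of aggrecan, stood at 6675 and 4196 normalized counts at E18.5, against 59.2 and 32.1 at E13.5 (6.88 ± 1.09, adjusted p = 0.000101). Matn1, a matrilin of hyaline cartilage, stood at 1806 and 841 at E18.5, against 0.665 and 4.59 at E13.5, and Ucma, a protein of resting and early chondrocytes, at 856 and 519 at E18.5, against 0 and 0 at E13.5, at least 289.5-fold higher. Matn4, the matrilin that many tissues share, was not called, with 258 and 126 at E18.5 and 292 and 166 at E13.5 and overlap between them (adjusted p = 1).

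Genes of chondrocyte enlargement and of bone rose in 7 of 8 cases. Col10a1, type X collagen, stood at 11971 and 2974 normalized counts at E18.5, against 6.65 and 2.75 at E13.5 (log2 fold change 10.53 ± 0.68 SE, adjusted p = 1.45e-09), with replicate 1 above replicate 2. The bone matrix proteins did not share that order. Ibsp, bone sialoprotein, stood at 3509.6 and 3617 at E18.5, against 6.65 and 0 at E13.5, Spp1, osteopontin, at 6909 and 6987 at E18.5, against 34.6 and 53.2 at E13.5, and Mmp13, the collagenase of the mineralizing front, at 1156 and 1651 at E18.5, against 0 and 0.918 at E13.5. Bglap, osteocalcin of mature osteoblasts, stood at 52.3 and 61.4 at E18.5, against 0 and 0 at E13.5, at least 24-fold higher. The transcription factors were uneven: Runx2 of hypertrophic chondrocytes and osteoblasts stood at 221 and 272 at E18.5, against 14.6 and 12.9 at E13.5 (adjusted p = 0.000253), whereas Sox9, the master factor of chondrocytes, was not called, with 304 and 247 at E18.5 and 239 and 155.1 at E13.5 (adjusted p = 0.703). Ihh, the hedgehog ligand of prehypertrophic chondrocytes, stood at 87.2 and 32.8 at E18.5, against 1.99 and 0 at E13.5 (adjusted p = 0.00379, lost without E13.5 replicate 2).

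The lamina propria is the layer under the vocal fold epithelium whose collagens, elastin and hyaluronan set how it vibrates. Of 44 genes of such fibrous matrix 28 were higher and 2 lower, but whole-organ RNA does not place them in that layer. In the trachea 31 of the 44 were higher and 2 lower, and in the esophagus 23 were higher and 2 lower. With library totals as the scale the count in the larynx was 22 higher and 4 lower. All 11 collagen genes rose. Col1a1, the main chain of type I collagen, stood at 117345 and 109569 normalized counts at E18.5, against 14325 and 12745 at E13.5 (log2 fold change 3.07 ± 0.47 SE, adjusted p = 6.03e-05), and Col12a1, a collagen that decorates fibrils, at 21824 and 24680.1 at E18.5, against 2136 and 1438 at E13.5 (3.70 ± 0.34, adjusted p = 1.14e-07). Col3a1, type III collagen, was 1.80 ± 0.36 log2 units higher, and with library totals the value was 1.19 and not called (adjusted p = 0.0668). Among proteoglycans 7 of 8 rose, among them Aspn, asporin, at 9441 and 10757 at E18.5, against 234 and 117 at E13.5. Dcn, decorin, was the eighth, with 9816 and 10908 at E18.5 and 6801 and 5767 at E13.5 (adjusted p = 0.153).

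Elastic fiber genes were mostly not called, with 4 of 14 higher and 1 lower, where 8.01% of all genes rose and 4.99% fell. Eln, elastin, stood at 19796 and 16315 normalized counts at E18.5 and 12128 and 5088 at E13.5, where the E13.5 replicates lay far apart (adjusted p = 0.306). Mfap5, a microfibril protein, was an exception, at 2067 and 2016 at E18.5, against 122 and 87.2 at E13.5 (log2 fold change 4.28 ± 0.38 SE, adjusted p = 8.87e-08). The fibulin Fbln1 stood at 1721 and 1426 at E18.5, against 3135 and 2706 at E13.5 (adjusted p = 0.00974, lost without E18.5 replicate 2 or E13.5 replicate 1). Of 6 genes of hyaluronan metabolism, the receptor Cd44 rose to 3108 and 3158 at E18.5, against 546 and 394 at E13.5 (2.73 ± 0.22, adjusted p = 1.96e-08), and the hyaluronidase Hyal2 fell to 582 and 599 at E18.5, against 1125 and 1245 at E13.5. The synthase Has2 stood at 551 and 928 at E18.5, against 339.7 and 144 at E13.5 (adjusted p = 0.0105, lost with library totals and without E18.5 replicate 2 or E13.5 replicate 2). Tnxb, a tenascin of elastic connective tissue, stood at 10876 and 9884 at E18.5, against 239 and 356 at E13.5 (5.13 ± 0.56, adjusted p = 9.85e-07).

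Genes of the upper layers of squamous epithelium rose in 32 of 39 cases, and 0 fell. They took 0.203 and 0.583% of counts at E18.5, against 0.00465 and 0.00382% at E13.5. At E18.5 replicate 2 was the higher library for 38 of the 39, and without it 23 were called. The median log2 fold change was 6.79, or 5.44 with the 10 genes that were at 0 in a group set to their bound. Krt4 and Krt13 are the keratin pair of non-cornified mucosa such as the esophagus. Krt4 stood at 19301 and 42923 normalized counts at E18.5, against 13.3 and 5.51 at E13.5 (log2 fold change 11.64 ± 1.73 SE, adjusted p = 5.25e-05), and Krt13 at 21006 and 51424 at E18.5, against 4.65 and 0 at E13.5 (13.72 ± 2.02, adjusted p = 5.66e-05). Krt78, a keratin of the upper layers, stood at 330.1 and 1556 at E18.5, against 0 and 0 at E13.5, at least 397-fold higher.

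Keratins of cornifying skin gave weaker evidence. Krt1 stood at 115 and 871 normalized counts at E18.5, against 12.6 and 15.6 at E13.5 (adjusted p = 0.00329, lost without E18.5 replicate 2 or E13.5 replicate 1), and its partner Krt10 was not called, with 88.5 and 65.6 at E18.5 and 19.3 and 48.6 at E13.5 (adjusted p = 0.348). Of 13 genes of the cornified envelope, the cross-linked protein shell of the outermost cells, 12 rose, among them Sprr3, at 635 and 2837 at E18.5, against 0 and 0 at E13.5, at least 731-fold higher. Processing enzymes rose in 6 of 7 cases. Spink5, the inhibitor of the proteases that loosen these layers, stood at 269 and 1293 at E18.5, against 0 and 0 at E13.5, at least 329-fold higher, and Alox12b, a lipoxygenase of the skin lipid barrier, at 198 and 711 at E18.5, against 0 and 0 at E13.5, at least 192-fold higher. The transcription factor Klf4, needed for the barrier of skin, stood at 509.6 and 776 at E18.5, against 138 and 133 at E13.5 (log2 fold change 2.24 ± 0.31 SE, adjusted p = 1.95e-05).

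The AP-1 site TGACTCA, which Fos and Jun proteins are known to bind, was present within 250 bases before the start in 5 of the 26 squamous genes with a RefSeq promoter sequence, all 5 of them among the 19 called genes with a sequence (26.3%), against 5.16% of 27025 genes. TATAAA was present in 8 of the 19 (42.1%, against 14.3%). Krt13, which had the largest change among the matched genes, has 2 AP-1 matches, with first bases 183 and 34 bases before the start. It lies on the minus strand of chr11:100120578-100120827 (GRCm38.p6) and is given 5′ to 3′ with the matches in capitals.
Krt13: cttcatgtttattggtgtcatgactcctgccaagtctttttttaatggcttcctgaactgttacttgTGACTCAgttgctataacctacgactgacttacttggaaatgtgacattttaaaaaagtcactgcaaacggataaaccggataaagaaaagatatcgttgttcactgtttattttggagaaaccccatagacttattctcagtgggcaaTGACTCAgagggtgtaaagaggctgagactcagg

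Basal epithelium, the layer that holds the stem cells of squamous and airway linings, had 17 of 23 genes higher and 2 lower. Without E18.5 replicate 2 the count of higher genes was 11, and without either E13.5 library it was 11 or 10. The hemidesmosome, which anchors basal cells, had 8 of 9 genes higher. Itgb4, its integrin beta chain, stood at 526 and 779 normalized counts at E18.5, against 68.5 and 46.8 at E13.5 (log2 fold change 3.49 ± 0.44 SE, adjusted p = 5.31e-06), and Col17a1, its transmembrane collagen, at 782 and 1617 at E18.5, against 47.9 and 86.3 at E13.5. Krt14 stood at 1606 and 6206 at E18.5, against 95.7 and 247 at E13.5, with replicate 2 well above replicate 1 (adjusted p = 0.00221, lost without E13.5 replicate 1). Trp63, the factor that marks basal cells, stood at 489.6 and 856 at E18.5, against 189 and 80.8 at E13.5 (adjusted p = 0.0153, lost with library totals and without replicate 2 of either age). Bnc1, another basal cell factor that mesothelium and germ cells also express, went the other way, at 16.2 and 33.9 at E18.5, against 322 and 709.5 at E13.5 (-4.34 ± 0.70, adjusted p = 0.000122).

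Junction genes of epithelia in general rose in 11 of 26 cases and fell in 1. At E18.5 replicate 2 was the higher library for 25 of the 26, without it 5 were called higher, and without E13.5 replicate 2 the count was 6. The desmosomal cadherin Dsg3 of squamous epithelium stood at 591 and 1666 normalized counts at E18.5, against 16 and 8.26 at E13.5 (log2 fold change 6.49 ± 1.10 SE, adjusted p = 0.000191), and its plaque protein Pkp1 at 1481 and 3231 at E18.5, against 66.5 and 39.5 at E13.5. Ehf, a transcription factor of squamous and airway epithelium, was also higher, at 1702 and 2622 at E18.5, against 74.4 and 24.8 at E13.5. The adhesion protein of simple epithelia, Epcam, was not called, with 885 and 1383 at E18.5 and 695 and 296 at E13.5 (adjusted p = 0.397). P-cadherin, Cdh3, stood at 207 and 387 at E18.5, against 976 and 1141 at E13.5 (adjusted p = 0.00193, lost without E18.5 replicate 1).

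Multiciliated cell genes were higher at E18.5 in 25 of 50 cases and lower in 0, but the calls rested on E18.5 replicate 2. Without it 5 genes were called, without E18.5 replicate 1 the count was 31, and without E13.5 replicate 1 or replicate 2 it was 10 or 11. Foxj1, the master factor of motile cilia, stood at 22.4 and 116 normalized counts at E18.5, against 5.98 and 3.67 at E13.5 (log2 fold change 3.79 ± 1.00 SE, adjusted p = 0.0109, lost without E18.5 replicate 2 or either E13.5 library). Dnah5, the heavy chain of the outer dynein arm that drives the beat, stood at 79.7 and 685 at E18.5, against 2.66 and 1.84 at E13.5 (7.31 ± 1.24, adjusted p = 0.000199), and Dnai1, an intermediate chain of the same arm, at 147 and 121 at E18.5, against 4.65 and 13.8 at E13.5 (3.88 ± 0.66, adjusted p = 0.000213). Both kept their calls without any 1 library. Early regulators of the lineage were not called: Gmnc stood at 4.98 and 9.53 at E18.5 and 5.98 and 0.918 at E13.5, and Mcidas at 0 and 9.53 at E18.5 and 4.65 and 0 at E13.5.

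For each of the 25 cilia genes the mean at E15.5 was at or above that at E18.5. Dnah5 had 2.66 and 1.84 normalized counts at E13.5, 1824 and 1542 at E15.5 and 79.7 and 685 at E18.5. Over the list the share of counts was 0.0067 and 0.00499% at E13.5, 0.0909 and 0.0738% at E15.5, and 0.0184 and 0.0305% at E18.5. The trachea had 41 and the esophagus 46 of the 50 genes called higher between the same ages, and for 0 of the 50 was the change in the larynx called different from that in either organ. The difference was positive for 3 of the 50 against the trachea, with a median of -2.05 log2 units. Against the esophagus it was positive for 4, with a median of -2.71. Of all genes with a mean of at least 10, 49.2 and 51.4% were positive in these 2 comparisons. The 50 genes belong to a single cell type, so their signs are not independent. At E18.5, 47 of them were higher in larynx replicate 2 than in replicate 1, and the part of either library was not tested.

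The X-box, searched as GTNNCC and GGNAAC with 2 bases between them, to which Rfx factors of ciliated cells are known to bind, was present in 5 of the 37 cilia genes with a RefSeq promoter sequence, and in 4 of the 17 called genes with a sequence (23.5%), against 1.24% of 27025 genes. A form 1 base shorter, GTNNC and GNAAC with 3 bases between them, was present in 3 of the 17 (17.6%, against 3.2%). The matched genes with the largest changes were Cfap206, a protein of the axoneme at the base of radial spokes, on the minus strand of chr4:34730207-34730456, and Tekt4, a tektin of the axonemal doublets, on the plus strand of chr17:25471340-25471589 (GRCm38.p6). Their X-boxes of the longer form, in capitals, begin 23 and 160 bases before the start. The match reads on the opposite strand in Cfap206 and on the strand shown in Tekt4. The Tekt4 sequence also holds the shorter form, gttgctcagcaac, nearer the start and left in small letters.
Cfap206: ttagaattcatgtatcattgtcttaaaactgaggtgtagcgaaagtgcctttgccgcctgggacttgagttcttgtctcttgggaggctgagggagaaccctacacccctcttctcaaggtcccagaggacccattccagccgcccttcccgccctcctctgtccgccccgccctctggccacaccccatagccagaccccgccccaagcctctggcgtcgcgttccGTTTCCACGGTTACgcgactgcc
Tekt4: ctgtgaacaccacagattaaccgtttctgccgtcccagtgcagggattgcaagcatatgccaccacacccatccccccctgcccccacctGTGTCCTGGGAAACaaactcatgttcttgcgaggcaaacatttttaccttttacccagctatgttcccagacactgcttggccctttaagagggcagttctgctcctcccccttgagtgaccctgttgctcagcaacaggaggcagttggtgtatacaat
Cfap206 stood at 8.72 and 82.6 normalized counts at E18.5, against 1.33 and 0 at E13.5 (call lost without E18.5 replicate 2 or E13.5 replicate 2), and Tekt4 at 4.98 and 79.4 at E18.5, against 1.33 and 1.84 at E13.5 (call lost without E18.5 replicate 2 or either E13.5 library).

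Secretory and gland genes were higher at E18.5 in 17 of 33 cases and lower in 1, and without E18.5 replicate 2 the count of higher genes was 12, without either E13.5 library 11. Muc5b, the gel-forming mucin of submucosal glands, stood at 7395 and 17593 normalized counts at E18.5, against 7.31 and 13.8 at E13.5 (log2 fold change 10.22 ± 1.65 SE, adjusted p = 0.000119). Ltf, lactoferrin of serous gland cells, stood at 4191 and 7716 at E18.5, against 53.2 and 114 at E13.5, and Bpifb2, a BPI fold protein of salivary glands, at 628 and 1438 at E18.5, against 0 and 0 at E13.5, at least 435-fold higher. Cyp2f2, a cytochrome of club cells, differed little between the E18.5 replicates, at 2528 and 2532 at E18.5, against 16 and 8.26 at E13.5 (7.65 ± 1.07, adjusted p = 6.40e-05). Spdef, a factor of mucous cells, stood at 154 and 209.6 at E18.5, against 9.97 and 8.26 at E13.5. Foxa2, a factor of foregut endoderm, was the list's gene that fell, to 2.49 and 8.47 at E18.5, against 107 and 70.7 at E13.5 (-3.96 ± 0.66, adjusted p = 0.000157).

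Secretoglobins, the small secreted proteins of club cells, were called in 0 of 3 cases and were highest at E15.5. Scgb3a2 had 93.7 and 34 normalized counts at E13.5, 6287 and 7079 at E15.5 and 58.6 and 32.8 at E18.5, and Scgb1a1 had 0 and 0 at E13.5, 423 and 639.7 at E15.5 and 1.25 and 3.18 at E18.5. Bpifa1 and Lyz1 were called, but each at E18.5 was present almost only in replicate 2. Bpifa1, an antimicrobial protein of the upper airway, stood at 4.98 and 5903 at E18.5 and 27.3 and 0 at E13.5, and Lyz1, lysozyme, at 0 and 55 at E18.5 and 0 and 0 at E13.5, and without E18.5 replicate 2 neither was higher.

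Genes of ion and water transport across epithelia were higher in 9 of 18 cases and lower in 0 (7 without E18.5 replicate 2, 5 without either E13.5 library). Aqp4, a water channel that skeletal muscle fibers also carry, stood at 3425 and 2082 normalized counts at E18.5, against 160.2 and 242 at E13.5 (log2 fold change 3.78 ± 0.53 SE, adjusted p = 2.42e-05), and Slc12a2, the sodium, potassium and chloride cotransporter that loads secreting cells, at 2026 and 2558 at E18.5, against 954 and 690.2 at E13.5. Atp6v0d2, a subunit of the proton pump that osteoclasts use, stood at 103 and 93.1 at E18.5, against 0.665 and 0 at E13.5. The chloride channel Cftr was not called, with 57.3 and 40.2 at E18.5 and 161 and 62.4 at E13.5 (adjusted p = 0.384). Foxi1 and Ascl3, factors of ionocytes, were not called either.

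Defence genes of epithelium were higher in 12 of 20 cases and lower in 0, and without E18.5 replicate 2 or E13.5 replicate 2 the count was 7. Pglyrp1, which binds bacterial wall peptidoglycan, stood at 182 and 292 normalized counts at E18.5, against 3.32 and 9.18 at E13.5 (log2 fold change 5.30 ± 0.73 SE, adjusted p = 1.68e-05). Cxcl17, a mucosal chemokine, stood at 103 and 76.2 at E18.5, against 0 and 0 at E13.5, at least 37.8-fold higher, although its call was lost with DESeq2. Among 23 genes of lipid and xenobiotic metabolism 14 were higher and 0 lower (9 without replicate 2 of either age). Adh7, the alcohol dehydrogenase of upper digestive epithelium, stood at 129.6 and 84.7 at E18.5, against 1.33 and 0.918 at E13.5, and Gsto1, a glutathione transferase, at 2918 and 3042 at E18.5, against 261 and 278 at E13.5 (3.47 ± 0.38, adjusted p = 1.06e-06).

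Genes of cell division fell. Of 40 cell cycle genes 29 were lower at E18.5 and 1 was higher, with a median log2 fold change of -1.14. In the trachea 34 of the 40 were lower and 2 higher (median -1.77). In the esophagus 33 were lower and 1 higher (median -1.73). In the larynx these genes took 0.133 and 0.113% of counts at E18.5, against 0.37 and 0.265% at E13.5. The falls were of modest size and the count depended on single libraries, with 10 lower without E18.5 replicate 2, 12 without E13.5 replicate 1, 18 without E18.5 replicate 1 and 23 without E13.5 replicate 2. Mitotic genes were lower in 16 of 18 cases. Ccnb1, the cyclin that drives entry into mitosis, stood at 594 and 597 normalized counts at E18.5, against 2137 and 1878 at E13.5 (log2 fold change -1.75 ± 0.31 SE, adjusted p = 0.000333), and Bub1, a kinase of the spindle checkpoint, at 225 and 216 at E18.5, against 953 and 719 at E13.5 (-1.92 ± 0.32, adjusted p = 0.000144). Replication genes were lower in 12 of 13 cases, among them Mcm2, a subunit of the replicative helicase, at 767 and 550.4 at E18.5, against 1799 and 1785 at E13.5 (-1.44 ± 0.29, adjusted p = 0.00122).

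Mki67, the proliferation marker, stood at 3298 and 3440.0 normalized counts at E18.5 and 7047 and 4776 at E13.5, which did not pass the test (adjusted p = 0.104) and passed it with library totals (log2 fold change -1.43, adjusted p = 0.00499). The cell cycle inhibitor Cdkn1a, which halts division in differentiating muscle and epithelium, was the gene that rose, to 1537 and 1289 at E18.5, against 81.1 and 137 at E13.5 (3.70 ± 0.39 SE, adjusted p = 6.48e-07). Of the 30 called genes, 27 had at E15.5 a mean at or beyond their level at E18.5. Ccnb1 had 2137 and 1878 normalized counts at E13.5, 453 and 416 at E15.5 and 594 and 597 at E18.5.

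The E2f site TTTCGCGC, to which E2f factors that govern replication genes are known to bind, was present in 3 of the 34 cell cycle genes with a RefSeq promoter sequence, all 3 of them among the 27 called genes with a sequence (11.1%), against 0.3% of 27025 genes. TTTGAA, the cell cycle homology region of mitotic genes, was present in 6 of the 27 (22.2%, against 18.3%). Cdk1, the kinase that Ccnb1 activates, had the largest change among the 3, and its sequence is given 5′ to 3′ on the minus strand of chr10:69352913-69353162 (GRCm38.p6), with the E2f site in capitals beginning 131 bases before the start.
Cdk1: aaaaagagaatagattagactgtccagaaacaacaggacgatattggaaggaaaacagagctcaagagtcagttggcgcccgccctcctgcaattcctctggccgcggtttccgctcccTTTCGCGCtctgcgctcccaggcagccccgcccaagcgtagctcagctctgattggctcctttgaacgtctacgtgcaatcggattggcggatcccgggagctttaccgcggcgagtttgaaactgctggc
Cdk1 stood at 675 and 565 normalized counts at E18.5, against 1550.1 and 1474 at E13.5 (log2 fold change -1.29 ± 0.29 SE, adjusted p = 0.00369, call lost without E18.5 replicate 2).

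The fetal growth program split by role. RNA-binding and chromatin factors of early fetal tissue fell in 6 of 9 cases. Igf2bp1, which binds fetal growth transcripts, stood at 405 and 339.8 normalized counts at E18.5, against 1634 and 1585 at E13.5 (log2 fold change -2.11 ± 0.22 SE, adjusted p = 4.22e-07), Hmga2, a chromatin protein of growing tissue, at 81 and 77.3 at E18.5, against 684 and 443 at E13.5 (-2.83 ± 0.41, adjusted p = 2.99e-05), and Lin28b, which blocks maturation of let-7 microRNAs, at 3.74 and 9.53 at E18.5, against 84.4 and 49.6 at E13.5. Tert, the catalytic subunit of telomerase, stood at 19.9 and 26.5 at E18.5, against 104 and 104 at E13.5. Imprinted genes rose in 5 of 9 cases and fell in 0, and over the list of 18 the rises numbered 2 without E18.5 replicate 1 or either E13.5 library. Dlk1, a growth regulator of fetal mesenchyme, stood at 14498 and 10178 at E18.5, against 2806 and 2332 at E13.5 (2.26 ± 0.38, adjusted p = 0.000192), and H19, a non-coding RNA of fetal muscle, at 412093 and 347357 at E18.5, against 112377 and 138685 at E13.5 (adjusted p = 0.0124). Igf2, H19 and Plagl1 lost their calls with library totals, and without E18.5 replicate 1 or either E13.5 library.

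Neuronal genes fell in 7 of 26 cases and rose in 0, and without E18.5 replicate 2 or replicate 1 the count was 2 or 3. Sox4, a factor of immature neurons and of many other fetal cells, stood at 1108 and 976 normalized counts at E18.5, against 2624 and 2428 at E13.5. Structural proteins of neurons were called in 1 of 14 cases, and Tubb3, neuronal tubulin, stood at 221 and 103 at E18.5 and 516 and 493 at E13.5 (adjusted p = 0.436). Schwann cell genes rose in 9 of 18 cases and fell in 0, with 4 higher by library totals, 5 without E18.5 replicate 2 and 4 without E13.5 replicate 2. Mal, a proteolipid of myelin and of some epithelia, stood at 1825 and 1366 at E18.5, against 51.2 and 47.7 at E13.5 (5.01 ± 0.59, adjusted p = 2.44e-06), and Pllp, plasmolipin, at 133 and 93.1 at E18.5, against 6.65 and 1.84 at E13.5. Sox10, the factor of the whole Schwann lineage, was not called, with 74.8 and 88.9 at E18.5 and 46.5 and 25.7 at E13.5 (adjusted p = 0.15).

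Embryonic globins, made by the primitive red cells of the yolk sac, fell, and adult globins did not pass the test. Hbb-y stood at 24.9 and 5.29 normalized counts at E18.5, against 12324 and 28266 at E13.5 (log2 fold change -10.40 ± 0.95 SE, adjusted p = 1.22e-07), and Hba-x at 15 and 6.35 at E18.5, against 1512 and 2835 at E13.5 (-7.68 ± 0.76, adjusted p = 2.86e-07). Hbb-bs, an adult beta globin, stood at 65316 and 18772 at E18.5 and 20679.7 and 23139.9 at E13.5, with replicate 1 at E18.5 above and replicate 2 below the E13.5 libraries (adjusted p = 0.482). Globin genes are close relatives between which reads may have been divided. Of the 13 red cell genes 8 were lower, and 4 without E18.5 replicate 2 or without E13.5 replicate 1.

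The deepest falls were in genes of heart muscle and of liver. Of 13 heart genes 11 fell and 1 rose. Nppa, the natriuretic peptide of the atrium, stood at 0 and 0 normalized counts at E18.5, against 5157 and 13319 at E13.5, at least 2673-fold lower, and Myl7, the atrial myosin light chain, at 3.74 and 2.12 at E18.5, against 27884 and 62404 at E13.5 (log2 fold change -13.88 ± 1.64 SE, adjusted p = 2.56e-06). Myh6, the cardiac alpha myosin, stood at 415 and 553 at E18.5, against 57875 and 101608 at E13.5. The 2 E13.5 libraries did not hold the same amount, with replicate 2 above replicate 1 for these 3 genes. Bmp10, a ligand of the trabeculating heart, stood at 0 and 0 at E18.5, against 536 and 732 at E13.5, at least 184-fold lower, and Gata5, a factor of heart and foregut endoderm, at 0 and 0 at E18.5, against 198 and 275 at E13.5, at least 68.5-fold lower. Nppa was also present at E13.5 in the other organs, and averaged 0 normalized counts in trachea at E18.5, against 3688 at E13.5, and 0 in esophagus at E18.5, against 2967 at E13.5.

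Liver genes were lower in 7 of 14 cases and higher in 0, and in 0 of 14 once either E18.5 library was left out. Alb, albumin, stood at 0 and 2.12 normalized counts at E18.5, against 5091 and 753 at E13.5, and Afp, alpha-fetoprotein, at 2.49 and 0 at E18.5, against 6681 and 1005 at E13.5, with E13.5 replicate 1 far above replicate 2 for both. Serpina6, Ahsg and Serpinf2, also plasma proteins of liver and also among the 12 largest falls, lost their calls without either E18.5 library or without E13.5 replicate 1. Cfi, complement factor I, was even between the E13.5 replicates, at 0 and 0 at E18.5, against 173 and 198 at E13.5, at least 53.8-fold lower, and kept its call.

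**Figure D3:**
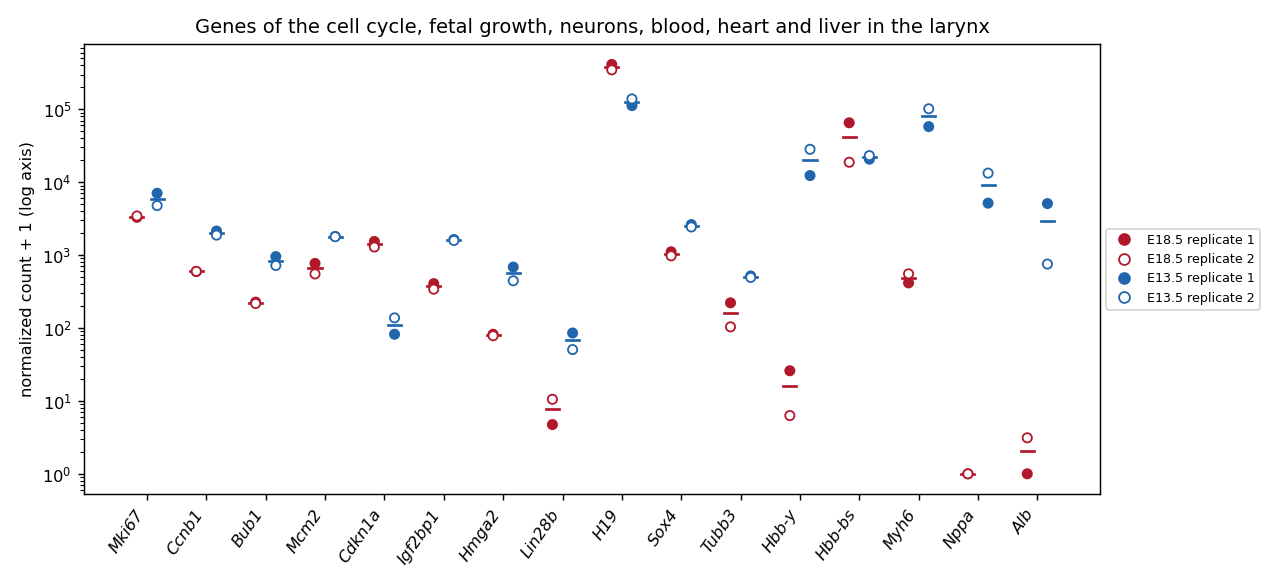
Normalized count plus 1 on a log axis for 16 genes of the cell cycle, fetal growth, neurons, blood, heart and liver in the larynx, with E18.5 in red and E13.5 in blue, replicate 1 filled, replicate 2 open, and a bar at the mean of the 2 libraries. Embryonic globin Hbb-y and heart gene Nppa lie far apart, cell cycle genes such as Ccnb1 and Bub1 lie close but without overlap, and Hbb-bs overlaps.

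Targets of glucocorticoids, the hormones whose level climbs before birth, rose in 12 of 14 cases and fell in 0, with 7 higher by library totals and 8 without either E13.5 library. Klf9 stood at 912 and 696 normalized counts at E18.5, against 121 and 124 at E13.5 (log2 fold change 2.71 ± 0.24 SE, adjusted p = 8.87e-08), the clock gene Per1 at 839.7 and 760.0 at E18.5, against 152 and 161 at E13.5 (2.35 ± 0.33, adjusted p = 2.65e-05), and the transcription factor Zbtb16 at 679 and 350.4 at E18.5, against 27.9 and 23.9 at E13.5 (4.30 ± 0.70, adjusted p = 0.000132). These genes also answer to other signals. Fkbp5, a co-chaperone of the receptor, lost its call with TMM factors and library totals. Immediate early genes, which dissection and stress can induce, were higher in 2 of 16 cases. Among all genes tested 8.01% rose, and among protein-coding genes 2716 of 20210 did. The calls of these immediate early genes were lost without E18.5 replicate 1 or E13.5 replicate 1.

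Mast cell genes rose in 4 of 5 cases. The chymase Cma1 stood at 904 and 969.5 normalized counts at E18.5, against 16.6 and 6.43 at E13.5 (log2 fold change 6.29 ± 0.84 SE, adjusted p = 2.43e-05), and the tryptase Tpsb2 at 605 and 646 at E18.5, against 3.32 and 0 at E13.5 (8.30 ± 0.92, adjusted p = 3.23e-06). Macrophage genes rose in 4 of 11 cases, among them Cd163, the hemoglobin scavenger of tissue macrophages, at 237 and 257 at E18.5, against 0 and 0 at E13.5, at least 104-fold higher, and Mrc1, the mannose receptor, at 2981 and 2862 at E18.5, against 907 and 808 at E13.5. Granulocyte genes had a median log2 fold change of -1.63, with 2 of 8 lower, the peptide Camp at 2.49 and 1.06 at E18.5, against 13.3 and 47.7 at E13.5 (adjusted p = 0.0104), and the peroxidase Mpo at 3.74 and 4.23 at E18.5, against 61.2 and 24.8 at E13.5 (adjusted p = 0.0499), and 1 higher, Ltf, which gland cells also make. Antigen presentation genes were called in 0 of 5 cases. The shares over all genes tested were 8.01% higher and 4.99% lower. Fat cell genes rose in 8 of 14 cases and fell in 0, with 4 without E18.5 replicate 2 or without either E13.5 library. Plin4, a coat protein of lipid droplets, stood at 3310.2 and 4742 at E18.5, against 18.6 and 19.3 at E13.5 (7.72 ± 0.60, adjusted p = 1.24e-08), although muscle fibers express it too. Adipoq, the fat cell hormone, had 3.32 and 1.84 normalized counts at E13.5, 164 and 1382 at E15.5 and 27.4 and 107 at E18.5.

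Endothelial genes fell in 4 of 12 cases and rose in 0, and without any 1 of the 4 libraries the count was 2. Tek, the receptor of angiopoietins, stood at 1179 and 1261 normalized counts at E18.5, against 2832 and 3664 at E13.5 (log2 fold change -1.41 ± 0.25 SE, adjusted p = 0.000254), and Pecam1, a junction protein of all endothelium, was not called, with 3512 and 3206 at E18.5 and 2728 and 2367 at E13.5 (adjusted p = 0.306). In smooth muscle 3 of 12 genes rose and 2 fell, where 8.01% of all genes rose and 4.99% fell. The falls were Cnn1, calponin, at 125 and 192 at E18.5, against 1848 and 2319 at E13.5, and Myocd, the coactivator of smooth and cardiac muscle genes, at 56.1 and 88.9 at E18.5, against 847 and 931 at E13.5 (-3.61 ± 0.60, adjusted p = 0.000155), while Acta2, smooth muscle actin, was not called (adjusted p = 0.494). Fetal heart muscle also expresses these genes, and the heart list moved with them as given above. Thyroid genes rose in 3 of 11 cases (2 and 1 lower without E18.5 replicate 2, 1 without either E13.5 library), and Tg, thyroglobulin, had 81.1 and 117 normalized counts at E13.5, 51689 and 45082 at E15.5 and 486 and 14878 at E18.5 (call lost without E18.5 replicate 2 or either E13.5 library).

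Signalling pathways gave fewer calls, and several turned on the scaling. In the Hedgehog pathway, 1 of 14 genes rose, the ligand Ihh given with cartilage, and 0 fell (1 and 5 by library totals, 2 and 0 without E13.5 replicate 1, 0 and 2 without E13.5 replicate 2), where 8.01% of all genes rose and 4.99% fell. The receptor Ptch1, itself a target of the pathway, stood at 779.9 and 742 normalized counts at E18.5 and 915 and 629 at E13.5 (adjusted p = 1). In the Wnt pathway 7 of 36 genes rose and 7 fell, against 4 and 17 by library totals and 3 and 3 without E13.5 replicate 2. Of its ligands, Wnt4 stood at 728 and 543 at E18.5, against 112 and 104 at E13.5 (log2 fold change 2.55 ± 0.34 SE, adjusted p = 1.26e-05), and the ligand enhancer Rspo1 at 27.4 and 31.8 at E18.5, against 136 and 207 at E13.5 (-2.53 ± 0.53, adjusted p = 0.00164). Secreted inhibitors went both ways, with Sfrp4 at 295 and 238 at E18.5, against 27.9 and 8.26 at E13.5, and Sfrp1 at 1202 and 1153 at E18.5, against 2806 and 2857 at E13.5. The target Axin2 was not called (adjusted p = 0.405).

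In the Notch pathway 2 of 19 genes rose and 3 fell (0 and 2 without E13.5 replicate 2, 1 and 2 without E18.5 replicate 1 or E13.5 replicate 1), a share of rises close to the 8.01% of all genes. The targets Hey1, at 223 and 168 normalized counts at E18.5, against 552 and 619.6 at E13.5 (log2 fold change -1.58 ± 0.27 SE, adjusted p = 0.000176), and Hey2, at 69.8 and 59.3 at E18.5, against 302 and 239 at E13.5, are also genes of the fetal heart. Hes1, the target that most tissues share, stood at 338 and 298 at E18.5 and 338 and 238 at E13.5 (adjusted p = 0.97). Of 34 Fgf and Bmp genes 14 rose and 5 fell (6 and 6 by library totals, and 9 rose without E18.5 replicate 1 or E13.5 replicate 2). Ligands came up in Fgf7, which mesenchyme makes for epithelium, at 279 and 287 at E18.5, against 20.6 and 20.2 at E13.5 (3.79 ± 0.62, adjusted p = 0.000145), and Fgf6, of muscle, at 229 and 209 at E18.5, against 10.6 and 11 at E13.5. The receptor Fgfr4, which myoblasts use, stood at 340.1 and 243 at E18.5, against 57.8 and 19.3 at E13.5. Bmp7 fell to 288 and 287 at E18.5, against 1009.7 and 1445 at E13.5, and so did the Bmp target Id3, to 447 and 362 at E18.5, against 1125 and 1295 at E13.5 (-1.58 ± 0.27, adjusted p = 0.000219), while the Bmp inhibitor Grem1 rose to 386 and 364 at E18.5, against 28.6 and 11.9 at E13.5 (4.18 ± 0.57, adjusted p = 1.73e-05).

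Retinoic acid genes rose in 3 of 17 cases and fell in 4 (1 and 6 by library totals, 1 and 4 without E18.5 replicate 1 or E13.5 replicate 2). Among all genes tested 8.01% rose and 4.99% fell, and among 20210 protein-coding genes 2716 rose and 1698 fell. Aldh1a2, which makes retinoic acid in embryonic mesoderm, stood at 164 and 259 normalized counts at E18.5, against 907 and 1757 at E13.5 (log2 fold change -2.65 ± 0.42 SE, adjusted p = 1.00e-04). The receptor Rarb, itself a target of the hormone, stood at 189 and 159 at E18.5, against 464 and 487 at E13.5. Dhrs9, a retinol dehydrogenase of differentiating epithelium, was higher, at 49.8 and 147 at E18.5, against 2.66 and 3.67 at E13.5.

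The change in the larynx was compared with that in the trachea and in the esophagus between the same ages, by testing the difference of the 2 log2 fold changes in the same fit. For the trachea 5 genes had a more positive change in the larynx (0.0141% of 35512) and 19 a more negative one (0.0535%), and for the esophagus 7 and 12 did (0.0197 and 0.0338%). In their own right, 3273 genes rose (9.22%) and 2228 fell (6.27%) in the trachea, and 3100 rose (8.73%) and 1998 fell (5.63%) in the esophagus. The test had few calls with 2 libraries a group, and these counts moved by more than 1.5 times under many alternatives. Some settings moved them less: against the esophagus they were 9 and 15 with TMM factors or library totals and 7 and 11 with a replicate block. Against the trachea they were 5 and 23 with TMM factors, also a smaller move, but 2 and 7 with the block. DESeq2 gave 28 and 94 genes against the trachea and 100 and 189 against the esophagus, and the fit over all 40 libraries gave 0 and 0 against the trachea (0 with a more positive and 0 with a more negative change) and 1 and 2 against the esophagus.

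Col10a1 had the largest positive difference among called genes in both comparisons. In the larynx it stood at 11971 and 2974 normalized counts at E18.5, against 6.65 and 2.75 at E13.5, in the trachea at 89.8 and 62.3 at E18.5, against 9.01 and 13.54 at E13.5, and in the esophagus at 50.5 and 35.5 at E18.5, against 5.74 and 9.65 at E13.5. Set against the trachea, the log2 change of the larynx was 7.73 ± 0.97 higher (adjusted p = 0.00069) and 8.06 ± 1.04 higher than in the esophagus (adjusted p = 0.00217). Both differences were lost over all 40 libraries, and that to the esophagus also without esophagus E13.5 replicate 2 (adjusted p = 0.0579). Spp1 had the same order. It stood at 6909 and 6987 in the larynx at E18.5, against 34.6 and 53.2 at E13.5, and at 294 and 176 in the trachea at E18.5, against 58.6 and 46.8 at E13.5, with a difference of 5.18 ± 1.01 (adjusted p = 0.049) that was lost without any 1 of the larynx or trachea libraries. In the esophagus Spp1 stood at 274 and 121 at E18.5, against 108 and 72 at E13.5, with a difference of 6.18 ± 1.01 (adjusted p = 0.0139), lost without either larynx E13.5 library or esophagus E18.5 replicate 2. Col2a1, by contrast, rose in all 3 organs, by 5.90 log2 units in the larynx, 7.72 in the trachea and 4.57 in the esophagus, and its change in the larynx was not called different from either.

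Tnmd, Col22a1 and Col12a1 had a more positive change in the larynx than in the esophagus. Tnmd, tenomodulin of tendon, stood at 1065 and 915 normalized counts in the larynx at E18.5, against 18.6 and 6.43 at E13.5, and at 398 and 178 in the esophagus at E18.5, against 49.5 and 192 at E13.5, a difference in log2 change of 4.99 ± 0.77 (adjusted p = 0.00835). Col22a1, the collagen of the muscle-tendon junction, had a difference of 3.16 ± 0.49 (adjusted p = 0.00784) and Col12a1 of 2.53 ± 0.43 (adjusted p = 0.0171). Each of these 3 rose in the larynx and was lower at E13.5 there than in the esophagus at that age. The esophagus at E13.5 differed between its replicates in these genes, with Tnmd at 49.5 and 192. The call of Tnmd was lost in 3 of the 8 fits that left out 1 library, without esophagus E13.5 replicate 2 (3.70, adjusted p = 0.0568), larynx E13.5 replicate 2 (4.47, adjusted p = 0.124) or esophagus E18.5 replicate 2 (4.52, adjusted p = 0.135). Col22a1 and Col12a1 each lost the call in 4 of the 8 fits that left out 1 larynx or esophagus library.

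Genes with a more negative change in the larynx included Hcn4, the pacemaker channel of heart. It stood at 3.74 and 1.06 normalized counts in the larynx at E18.5, against 1499.6 and 1245 at E13.5, and at 18.2 and 24.2 in the esophagus at E18.5, against 163 and 119.5 at E13.5 (difference -6.42 ± 0.91, adjusted p = 0.00382), beside the heart list, which took more counts at E13.5 than at E18.5 in the larynx. Calca, calcitonin and its related peptide, of thyroid C cells and sensory neurons, was lower in the larynx at 8.72 and 19.1 at E18.5, against 119 and 208 at E13.5, whereas in the trachea it stood at 259.9 and 335 at E18.5, against 65.6 and 91.1 at E13.5 (difference -5.46 ± 1.02, adjusted p = 0.0424). Sall1, a transcription factor, stood at 8.72 and 28.6 in the larynx at E18.5, against 121 and 215 at E13.5, and at 453 and 279 in the trachea at E18.5, against 59.8 and 70.2 at E13.5 (difference -5.63 ± 1.00, adjusted p = 0.0354). Msln, mesothelin, overlapped between ages in the larynx, at 253 and 380.0 at E18.5 and 179 and 408 at E13.5, and stood at 2773 and 3657 in the trachea at E18.5, against 93.3 and 107 at E13.5 (difference -4.89 ± 0.86, adjusted p = 0.0354). These 3 differences to the trachea were each lost in at least 7 of the 8 fits that left out 1 larynx or trachea library.

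**Figure D4:**
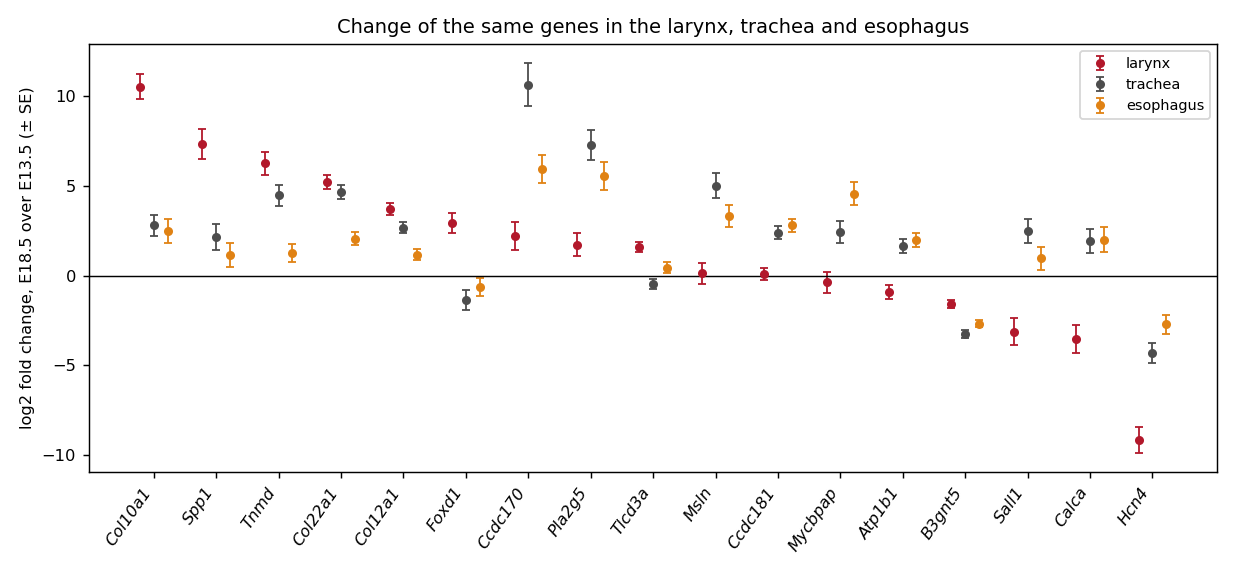
Log2 fold change between E18.5 and E13.5, with its SE, in larynx (red), trachea (grey) and esophagus (orange) for the 17 genes named for a difference between organs, ordered by the change in the larynx. Col10a1 and Spp1 lie far above the other organs in the larynx, at 10.53 and 7.32, and Calca and Sall1 lie below 0 in the larynx and above 0 in the trachea. The trachea value of Ccdc170 rests on libraries at 0 at E13.5 and is not a bound.

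Levels at E15.5 lay between the 2 ages for most rises and for a smaller share of the falls. The mean at E15.5 lay between those of E13.5 and E18.5 for 74.9% of the genes that rose and for 46.4% of those that fell, which is a description with no test. Muscle genes took 0.893 and 1.17% of counts at E13.5, 9.19 and 8.2% at E15.5 and 12.3 and 10.48% at E18.5. Cartilage and bone genes took 0.0323 and 0.0212% at E13.5, 0.608 and 0.235% at E15.5 and 0.483 and 0.293% at E18.5, and squamous genes 0.00465 and 0.00382%, 0.254 and 0.314%, and 0.203 and 0.583% at the same ages. Cell cycle genes stood at 0.37 and 0.265% at E13.5, 0.136 and 0.11% at E15.5 and 0.133 and 0.113% at E18.5. Replicate 2 at E15.5 is the larynx library among those that stood apart by olfactory receptor genes, and by replicate 1 alone the shares between were 73.4 and 44.7%.

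**Figure D5:**
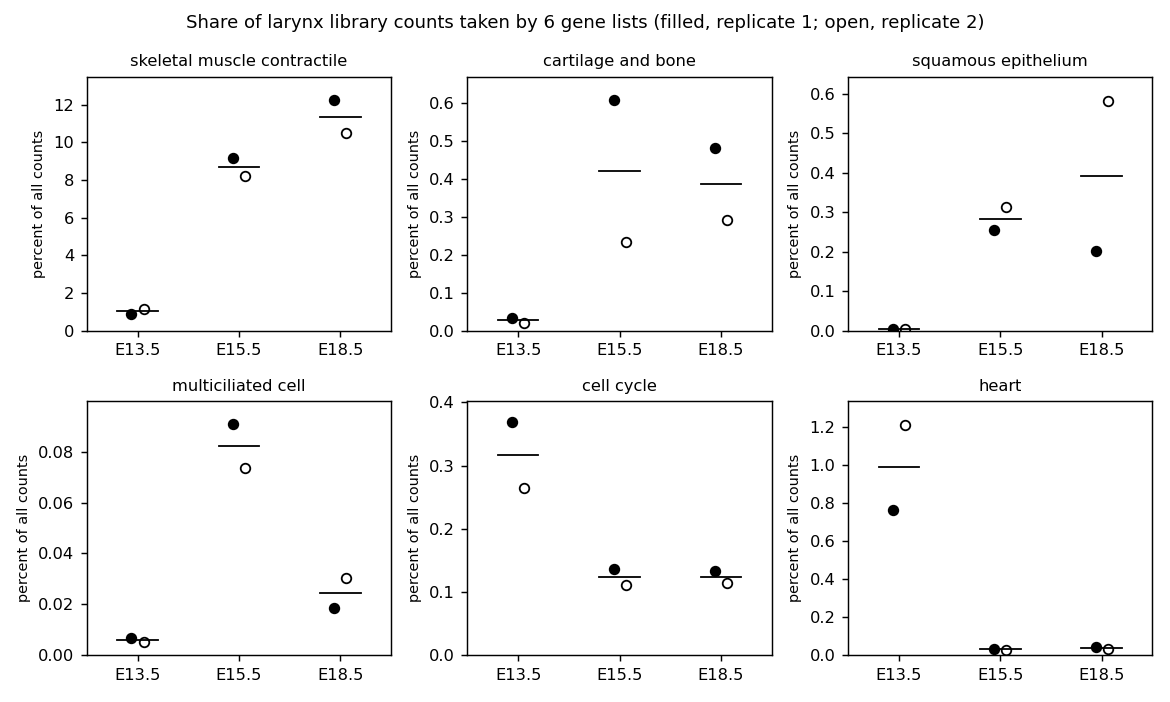
Share of all counts, in percent, taken by 6 gene lists in larynges of 3 ages (E13.5, then E15.5, then E18.5), with replicate 1 filled, replicate 2 open and a bar at the mean. Muscle took 0.893 and 1.17% at E13.5 and 12.3 and 10.48% at E18.5, multiciliated genes peak at E15.5, and the cell cycle and heart lists are at their highest at E13.5.

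A separate set of vocal fold libraries, labelled by an index and made from P0 pups and E15.5 embryos with 2 libraries each, gave values of these genes in other samples. Between P0 and E15.5, 0 of 28557 genes were called by the quasi-likelihood test, with 2616 at an unadjusted p under 0.05, and DESeq2 called 499 higher and 265 lower. Of the genes that rose in the larynx and were tested there, 74.5% had a positive change at P0, against 53.7% of all genes, and of those that fell 82.9% had a negative change, against 44.8% of all genes. Acta1 stood at 299079 and 284280 normalized counts at P0, against 113354 and 41041 at E15.5. The regulator Myog did not follow, at 1939 and 1924 at P0, against 6766 and 4471 at E15.5. Col2a1 stood at 218510.0 and 241870.0 at P0, against 136443 and 195486 at E15.5, and Foxj1 at 777 and 498 at P0, against 1404 and 2356 at E15.5. Col10a1 stood at 1653 and 2537 at P0 and 5846 and 18.7 at E15.5, where the replicates lay far apart. These ages are not those of the main comparison, and the 2 kinds of library differed in content. Mitochondrial ribosomal RNA took 0.0567 to 0.149% of counts in the 4 vocal fold libraries, against 22.8 to 28.4% in the 4 larynx libraries compared above. The small RNAs 7SL and 7SK together took 0.000783 to 0.00466%, against 2.29 to 7.21%. The sources used here name poly-A preparation and give no difference between the kinds, and no level is compared across them.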

How the data were processed

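RNA-seq libraries of FVB/N larynx, trachea and esophagus were analysed. Per the methods, poly-A libraries were sequenced on HiSeq 2000 or NovaSeq instruments. The authors deposited RSEM expected counts per gene, and the submitters' processing notes name FastQC 011.5, Bowtie2 2.4.2, RSEM 1.3.3 and GRCm39. RSEM divides reads among related genes, so paralogs (myosins, keratins, globins) are uncertain. The sources used here do not give strand handling, so overlapping and antisense genes cannot be separated.

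Expected counts were rounded and fitted with edgeR 4.0.16 (R 4.3.3) by quasi-likelihood over 30 short-code libraries in 15 groups, with median-ratio factors, keeping genes that reached 1 normalized count in 2 or more libraries. Adjusted p (Benjamini-Hochberg) under 0.05 was the threshold. Vocal fold P0 and E15.5 libraries were fitted within their own table. Alternatives were TMM factors, library totals, DESeq2 1.42.0, other library sets, filters, a replicate block and leaving out each library. The fit was also run on simulated data over 34013 genes for E18.5 minus E13.5. It called 84% of 4-fold and 98% of 16-fold changes (50 of each size) in the right direction and 0.0118% of unchanged genes. These rates belong to the simulated data only, and the rates for the larynx libraries themselves were not tested.

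Named genes were the 12 largest rises and falls (protein-coding, called, mean of at least 50 in the higher group, no overlap), list members with the largest changes or a stated role, and, for each test between organs, the 5 largest called differences in each direction among protein-coding genes that averaged 50 or more in a group, whether or not ages overlapped, which leaves out called genes at lower levels or with a Rik name. Single values of some list members are not reported here. The comparison, the 38 gene lists and the motifs were chosen with earlier results of these data known. Genes at 0 in a group were given a bound against 3 counts per library. Promoter sequences shown were chosen by size of change among called, matched genes that averaged at least 10 normalized counts at E18.5 or E13.5. Genes on chromosome 18 were left out of that choice.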

Additional observations from a re-analysis of the deposited data

Results flagged for a closer look

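Each result here is a change between E18.5 and E13.5 in the larynx that differed from the change in the trachea or the esophagus by a test of the difference itself, an interaction in edgeR's quasi-likelihood fit. Differences are of log2 fold changes, larynx minus the other organ, ± SE, with 2 libraries in each group. Of the 20 differences, that of Col10a1 to the trachea kept its call in all 8 fits without 1 larynx, trachea or esophagus library of these ages. The calls of Spp1, Ccdc170 and Calca against the trachea were kept in 0 of 8, and those of Foxd1, Tlcd3a, Sall1, Pla2g5 and Msln against the trachea and of Calca and Atp1b1 against the esophagus in 1 of 8. B3gnt5, Mycbpap and Ccdc181 kept theirs in 3 of 8, Col22a1 and Col12a1 in 4, Spp1 and Tnmd against the esophagus in 5, and Col10a1 and Hcn4 against the esophagus in 7.

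Against the trachea, the change was more positive in the larynx for Col10a1 (difference 7.73 ± 0.97) and Spp1 (5.18 ± 1.01), with the values given in the report. Replicates differed in Col10a1, at 11971 and 2974 in the larynx at E18.5 and at 5846 and 18.7 in the vocal fold libraries of E15.5. Foxd1, a transcription factor of stromal progenitors in the kidney, had 36.1 and 85.7 normalized counts in the larynx at E18.5, against 8.64 and 7.34 at E13.5, and 9.62 and 9.14 in the trachea at E18.5, against 30.2 and 17.2 at E13.5 (difference 4.27 ± 0.79, adjusted p = 0.04). Tlcd3a had a difference of 2.08 ± 0.41 (adjusted p = 0.049). B3gnt5, a glycosyltransferase of the lacto-series, fell in both organs and less in the larynx, with 181 and 219 normalized counts in the larynx at E18.5, against 681 and 520.4 at E13.5, and 81.3 and 77.3 in the trachea at E18.5, against 663 and 864 at E13.5 (difference 1.68 ± 0.28, adjusted p = 0.0281). The change was more negative in the larynx for Ccdc170, with 7.48 and 21.2 normalized counts in the larynx at E18.5, against 3.99 and 1.84 at E13.5, and 228 and 145 in the trachea at E18.5, against 0 and 0 at E13.5 (difference -8.41 ± 1.60, adjusted p = 0.0458), where the size of the difference depends on the prior count because the trachea was at 0 at E13.5. Pla2g5, a secreted phospholipase, had 52.3 and 65.6 normalized counts in the larynx at E18.5, against 11.3 and 24.8 at E13.5, and 749 and 548 in the trachea at E18.5, against 5.15 and 2.46 at E13.5 (difference -5.56 ± 1.01, adjusted p = 0.04). Sall1 (-5.63 ± 1.00), Calca (-5.46 ± 1.02) and Msln (-4.89 ± 0.86) are given with their levels in the report.

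Against the esophagus, the change was more positive in the larynx for Col10a1 (8.06 ± 1.04), Spp1 (6.18 ± 1.01), Tnmd (4.99 ± 0.77), Col22a1 (3.16 ± 0.49) and Col12a1 (2.53 ± 0.43). It was more negative for Hcn4 (-6.42 ± 0.91) and for Calca (-5.52 ± 1.04, adjusted p = 0.0422), which stood at 135 and 116 in the esophagus at E18.5, against 28.7 and 34.1 at E13.5. Mycbpap had 6.23 and 39.2 normalized counts in the larynx at E18.5, against 25.3 and 34.9 at E13.5, and 154 and 230.1 in the esophagus at E18.5, against 5.74 and 10.4 at E13.5 (difference -4.94 ± 0.86, adjusted p = 0.0195). Atp1b1, the beta subunit of the sodium pump, had 1454 and 1272 normalized counts in the larynx at E18.5, against 2190.2 and 3021 at E13.5, and 1746 and 2654 in the esophagus at E18.5, against 387 and 718 at E13.5 (difference -2.93 ± 0.56, adjusted p = 0.0477). Ccdc181 had 95.9 and 179 normalized counts in the larynx at E18.5, against 102 and 156 at E13.5, and 671 and 806 in the esophagus at E18.5, against 120.5 and 92.1 at E13.5 (difference -2.70 ± 0.49, adjusted p = 0.0327), with overlap between the ages in the larynx. The part of epithelial content, neighbouring tissue or dissection in these differences was not tested.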

How the results depend on the processing

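Numbers are genes with a higher, then a lower change in the larynx. For E18.5 against E13.5 (2846 and 1773 genes), library totals gave 1561 and 5311, all 40 libraries 1136 lower, and fits without 1 replicate 1643 to 2109 higher and 785 to 1077 lower. Larynx minus trachea (5 and 19) became 204 and 340 with no filter on low counts, 2 and 8 with a mean of at least 10, 28 and 94 with DESeq2, 3 higher with the 12 libraries of E13.5 and E18.5, 0 and 0 with all 40 libraries (0 at the adjusted threshold by edgeR), 32 lower without the 3 libraries that stood apart, 3 higher with bias-adjusted quasi-likelihood, and 1 to 4 higher and 1 to 11 lower without 1 replicate. Larynx minus esophagus (7 and 12) became 389 and 517 with no filter, 100 and 189 with DESeq2, 40 and 51 with 12 libraries, 1 and 2 with all 40 libraries, 11 and 42 without the 3 libraries, and 1 to 11 higher and 1 to 22 lower without 1 replicate. In the vocal fold libraries, P0 minus E15.5 had 0 genes called by edgeR and 764 by DESeq2. The fitted log2 fold change of gene Bpifa1 reversed to -1.54 without larynx E18.5 replicate 2 (highest 14.60, without E13.5 replicate 1, where the other E13.5 library is at 0). The cause of these moves was not tested.

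With the replicate number as a block, 2748 genes were higher and 1732 lower, and the trachea difference had 2 and 7. Same-numbered samples were not paired by the labels, and their deviations at E18.5 and E13.5 correlated at -0.12, so a pairing with the larynx E18.5 numbers crossed was added after seeing the data and gave 1 and 1 for the trachea and 5 lower for the esophagus. Of 430 called genes in the lists or named, TMM factors kept 418, library totals 383, DESeq2 421, and the fit without E18.5 replicate 2 kept 292.

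Precision is limited by 2 pooled libraries a group, by depths of 21393700 to 25568770 counts, and by reads shared between related genes. Heart, liver and thyroid transcripts also differed between libraries, and the part of dissection in this was not tested.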
